A study of Homo sapiens with 2 samples.

Results

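The spliceosome and hnRNP genes described here encode proteins that bind pre-mRNA, remove introns from it or package it. They were chosen by symbol, as the genes whose names begin with SNRP followed by A to G or N, with SF3A, SF3B, SRSF, PRPF or LSM and a digit, with U2AF1 or U2AF2, or with HNRNP, leaving out pseudogenes whose symbols end in P and a number. This gave 82 genes of the 16424 listed, and no symbol was listed more than 1 time. They fell into 6 families and 1 further transcript, namely 12 Sm and snRNP proteins, 12 LSM proteins, 12 subunits of SF3A, SF3B and U2AF, 13 PRPF proteins, 12 SR proteins, 20 hnRNP proteins and the transcript HNRNPU-AS1.

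Cap analysis of gene expression (CAGE), which sequences and counts the capped starts of RNA molecules, was used in PLC/PRF/5 cells, an established human hepatoma line. There was 1 library of non-treated cells (0 µg/ml) and 1 library of cells kept for 6 h with 3 µg/ml M2BPGi, the Mac-2 binding protein glycan isomer, in 1 cell line. No difference between the libraries therefore has a replicate check, and the words higher and lower refer to these 2 libraries. Values are CPM, the tags of a gene scaled by the total of its library, and since 1 tag marks the start of 1 RNA molecule they are not scaled by transcript length. Read back from the CPM steps, the totals were 24040209 tags (non-treated) and 24862941 tags (treated). Log2 ratios are of M2BPGi-treated over non-treated cells after adding 1 CPM to each, which understates the difference for low genes. Intervals are 95% Clopper-Pearson intervals of the tag ratio without that addition, and they cover counting error only.

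The label of a hepatoma line was checked against marker genes. Of 16 hepatocyte and hepatoma markers, 16 had tags, among them AFP with 695 CPM without and 566 CPM with M2BPGi. FGG, the fibrinogen gamma chain gene, was the most abundant of them in non-treated cells, with 1402 and 987 CPM. ALB, the albumin gene, was low, with 8.82 and 7.04 CPM. Summed, the 16 markers took 7208 and 6115 CPM, and 11 of them had less with M2BPGi, the median log2 ratio being -0.29. PTPRC, a marker of blood cells, was listed at 0 in both libraries, while LYZ, the lysozyme gene, had 32.1 and 29.2 CPM. Of the fibroblast and stellate cell markers, VIM had 109 and 107 CPM, COL3A1 had 4.53 and 3.42 CPM and COL1A1 had 0.67 and 0.76 CPM. The endothelial markers PECAM1, CDH5, VWF and KDR were not analysed here. The lower hepatocyte markers come from the same 2 libraries as the values of the spliceosome genes, and their part in those values was not tested.

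The spliceosome is built anew on each intron from small nuclear ribonucleoproteins (snRNPs), in which a ring of Sm proteins, or of LSM proteins for U6, surrounds a small nuclear RNA. U2AF and the SF3A and SF3B complexes of the U2 snRNP recognise the 3′ splice site and the branch point, and PRPF proteins hold and remodel the tri-snRNP that carries the catalytic core. SR proteins mostly promote the use of nearby exons, and hnRNP proteins coat nascent RNA and often oppose them. Many of these genes are expressed in all dividing cells, and hepatocytes and hepatoma cells depend on them for the splicing of their secreted-protein mRNAs.

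Of the 82 genes, 81 had a mean of at least 1 CPM, the filter that 13724 of all genes passed. The exception was HNRNPCL1, a retrocopy related to HNRNPC, which was listed at 0 in both libraries. The 81 members ranged from 2.79 to 1332 CPM in non-treated cells and from 4.22 to 1395 CPM in M2BPGi-treated cells. Their median was 122 CPM without and 125 CPM with M2BPGi, against 21.3 and 20.4 CPM over all genes that passed. Together the members held 13895 CPM without and 14724 CPM with M2BPGi, which is 1.48% and 1.56% of the tags on listed genes.

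The members lay somewhat higher in M2BPGi-treated cells than genes as a whole, and the difference was small for most of them. Their median log2 ratio was 0.10, with quartiles of -0.08 and 0.24, while that of all 13724 genes was -0.05, with quartiles of -0.26 and 0.14. In M2BPGi-treated cells 48 members were higher and 33 lower, so 59.3% were higher against 42.9% of all genes. Over the 50 members searched and found to have no near-identical gene elsewhere, the median was -0.0024, with 24 higher and 26 lower. The direction of the median relative to 0 therefore rests on the members included. The median of these 50 was above the -0.05 of all genes, and 48% of them were higher, against 42.9% of all genes. At least 1.3-fold higher were 7 members (8.64%), where 6.32% of all genes were, and at least 1.3-fold lower were 6 members (7.41%), where 13.6% of all genes were. With the libraries rescaled to a median log2 ratio of 0 over all genes, these counts were 11 and 4 (13.6% and 4.94%), against 8.69% and 10.2% of all genes. At 1.2-fold, 18 members were higher and 11 lower (22.2% and 13.6%), against 13.0% and 24.2% of all genes. As deposited, the share past 1.3-fold in the higher direction was thus near that of all genes and the share that was lower was smaller, while after rescaling both shares differed. All genes are less abundant than the members, and the part of abundance in these shares was not tested. At 1.5-fold, 1 member was higher and 1 lower, where 1.60% and 4.04% of all genes were. At 2-fold there were 0 and 0 members, against 0.240% and 0.430% of all genes.

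Counting error alone did not cover most of these differences. The interval lay above 0 for 45 members, below 0 for 18 and included 0 for 18. Over all 13724 genes it lay above 0 for 3125, below 0 for 4317 and included 0 for 6282. An exact binomial test of the tags, two-sided with Benjamini-Hochberg adjustment over the 13724 genes, called 43 members higher and 17 lower, while it called 20.8% of all genes higher and 28.4% lower. That test compares the libraries, not the conditions, and it calls abundant genes such as these more readily.

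**Figure D1:**
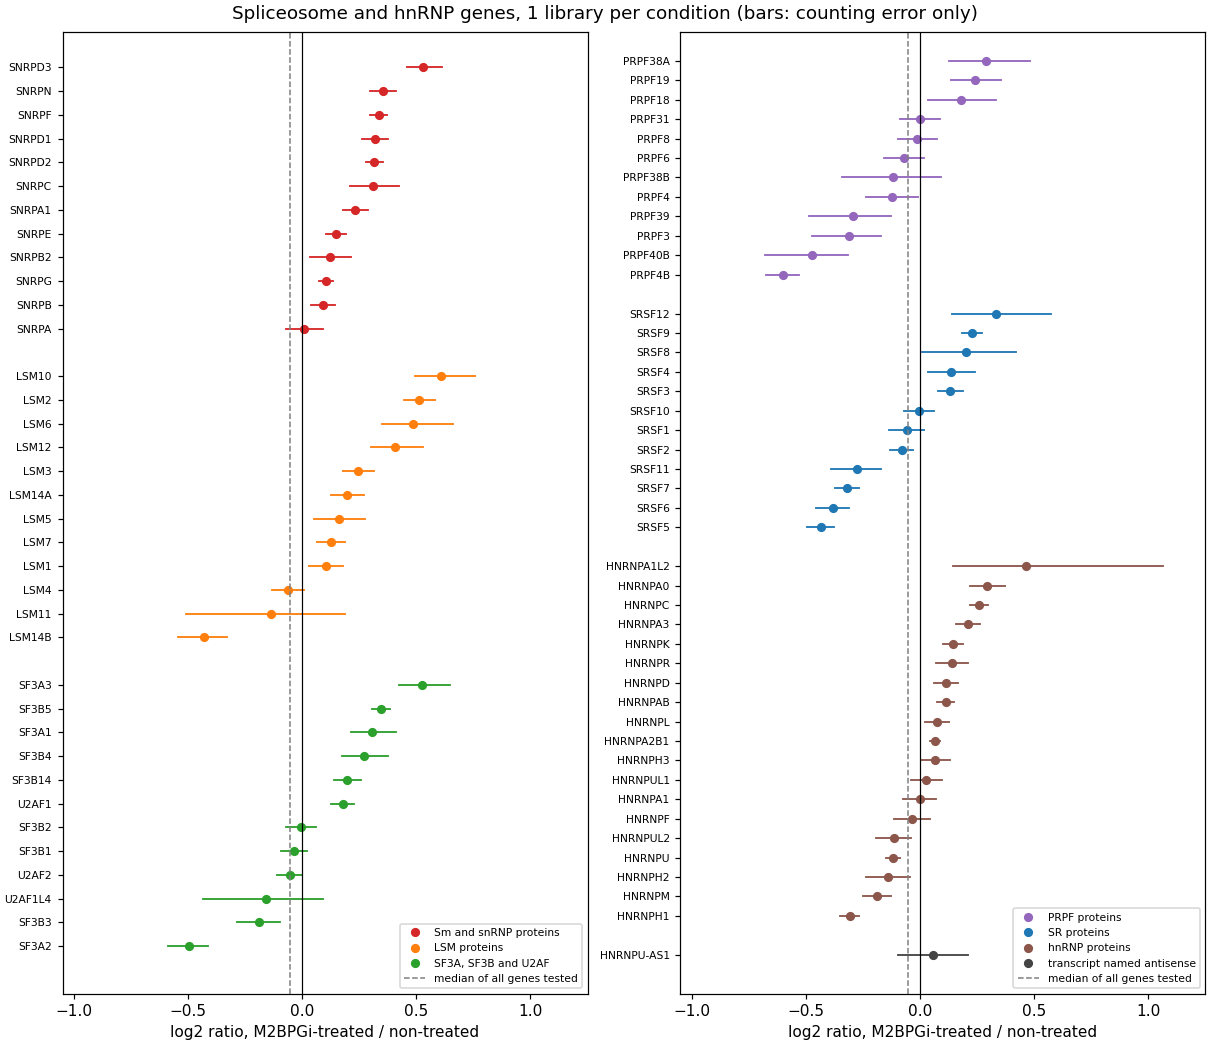
Log2 ratio of M2BPGi-treated over non-treated cells for the 81 members with a mean of at least 1 CPM (1 PRPF gene is not drawn), by family, with 1 library per condition. Points are ratios after adding 1 CPM, bars are 95% Clopper-Pearson intervals of the tag ratio, the solid line marks 0 and the dashed line the median of all 13724 genes (-0.05); the 12 Sm and snRNP proteins lie above 0, while members on both sides of 0 occur in the other 5 families.

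The Sm and snRNP proteins were the family with the highest median, and its members were higher in M2BPGi-treated cells in 12 of 12 cases. The median log2 ratio was 0.27, with a range of 0.01 to 0.53, and the summed level was 3052 CPM without and 3576 CPM with M2BPGi. The direction of the median was the same after rescaling of the libraries (0.32). The 7 proteins of the Sm ring (SNRPB, SNRPD1, SNRPD2, SNRPD3, SNRPE, SNRPF and SNRPG) had a median of 0.32, and 7 of 7 had an interval above 0. SNRPD3, which pairs with SNRPB in the ring (ENSG00000100028, chromosome 22 from 24555503 to 24609980; positions are from GENCODE v29 on GRCh38, and the tags may have been mapped to another build), had 94.97 CPM without and 138 CPM with M2BPGi. Its log2 ratio was 0.53 (interval 0.46 to 0.61), and it was the member of this family that passed 1.3-fold, joined after rescaling by SNRPN and SNRPF. In GENCODE v29 it overlaps GGT1 on the same strand, so tags of the 2 genes may not be separable.

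SNRPD1 and SNRPD2, a further pair of the ring, were close to each other in ratio. SNRPD1 had 194 CPM without and 242 CPM with M2BPGi. SNRPD2 had 429 and 534 CPM. Both log2 ratios were 0.32. SNRPF, which sits beside SNRPE and SNRPG in the ring, had 434 and 548 CPM with a log2 ratio of 0.33 (interval 0.30 to 0.37). SNRPE had 335 and 372 CPM, a log2 ratio of 0.15. SNRPG was the most abundant gene of the family, with 703 and 756 CPM and a log2 ratio of 0.10 (interval 0.07 to 0.13). SNRPF was thus above its 2 partners by more than counting error, while the intervals of SNRPE (0.11 to 0.19) and SNRPG overlapped.

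SNRPB encodes the SmB and SmB′ proteins, and SNRPN encodes the closely related SmN from an imprinted locus. SNRPB had 234 CPM without and 249.7 CPM with M2BPGi, a log2 ratio of 0.09 (interval 0.04 to 0.14). SNRPN had 194 and 247 CPM, a log2 ratio of 0.35 (interval 0.30 to 0.41). The level of SNRPN was below that of SNRPB by less in M2BPGi-treated than in non-treated cells. SNRPN overlaps SNHG14 and AC124312.1 on the same strand, so the source of its tags is uncertain.

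The proteins specific to the U1 and U2 snRNPs covered much of the range of the family. SNRPC, the protein C of U1, which helps that snRNP bind the 5′ splice site, had 52.2 CPM without and 65.1 CPM with M2BPGi, a log2 ratio of 0.31. SNRPA, the protein A of U1, had 99.5 and 100.2 CPM, a log2 ratio of 0.01 whose interval (-0.07 to 0.09) included 0. SNRNP70, a further U1 protein outside the chosen symbols, had 149 and 128 CPM, a log2 ratio of -0.22 (interval -0.29 to -0.15). These U1 proteins therefore had different ratios, although that of SNRPC is uncertain because of a copy. SNRPA1 and SNRPB2, which form a pair on the U2 small nuclear RNA, had log2 ratios of 0.23 and 0.12. SNRPA1 had 200.04 and 235 CPM, and SNRPB2 had 82.0 and 89.3 CPM.

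Among the 12 LSM proteins, the median log2 ratio was 0.18, and 9 were higher and 3 lower in M2BPGi-treated cells, with the same direction of the median after rescaling (0.23). Their summed level was 1018 CPM without and 1163 CPM with M2BPGi. At 1.3-fold, 4 were higher and 1 lower (4 and 0 after rescaling), the largest number of any family. Among all genes, 6.32% were higher and 13.6% lower at this fold (8.69% and 10.2% after rescaling). Of the 7 proteins of the LSM2 to LSM8 ring that binds the end of U6 RNA, 6 were listed and LSM8 was not analysed here. The median of the 6 was 0.20, and 5 of them were higher.

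LSM2 (ENSG00000204392, chromosome 6 from 31797396 to 31806984) was the highest of the ring, with 123 CPM without and 176 CPM with M2BPGi, a log2 ratio of 0.51 (interval 0.45 to 0.58). LSM6 had 23.6 and 33.5 CPM, a log2 ratio of 0.49 (interval 0.35 to 0.66). LSM3 had 139 and 165 CPM, a log2 ratio of 0.24. In ratio, these ring proteins were above their neighbours LSM5, with 51.8 and 58.1 CPM, and LSM7, with 164 and 179 CPM. LSM4, which ends in a glycine-rich tail, was the exception in the ring, with 132 and 126 CPM and an interval (-0.13 to 0.01) that included 0. LSM1 replaces LSM8 in the cytoplasmic ring that promotes decapping of mRNA. It had 116 CPM without and 125 CPM with M2BPGi, a log2 ratio of 0.10.

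LSM10 and LSM11 stand in for SNRPD1 and SNRPD2 in the U7 snRNP, which cleaves the 3′ ends of replication-dependent histone mRNAs. LSM10 (ENSG00000181817, chromosome 1 from 36391238 to 36397892) had the highest ratio of all members, with 32.2 CPM without and 49.7 CPM with M2BPGi, a log2 ratio of 0.61 (interval 0.49 to 0.76). It was the member at least 1.5-fold higher. LSM11 was rare, with 6.07 and 5.43 CPM, and its interval (-0.51 to 0.19) was too wide to show a difference at this depth.

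LSM12, an LSM-domain protein outside the rings, had 44.7 CPM without and 59.6 CPM with M2BPGi, a log2 ratio of 0.41 (interval 0.30 to 0.53). LSM14A and LSM14B, components of cytoplasmic P-bodies that bind translationally repressed mRNA, went opposite ways. LSM14A had 118 and 136 CPM, a log2 ratio of 0.20. LSM14B had 67.05 and 49.55 CPM, a log2 ratio of -0.43 (interval -0.54 to -0.33). The distance in level within the pair was thus wider with M2BPGi.

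Subunits of SF3A, SF3B and U2AF were split, with 6 higher and 6 lower and a median log2 ratio of 0.09 (0.14 after rescaling). At 1.3-fold, 1 was higher and 1 lower (2 and 1 after rescaling), against 6.32% and 13.6% of all genes (8.69% and 10.2% after rescaling). The median was -0.04 over the 9 subunits searched and found without a near-identical gene, so its direction rests on the members included. The median of all genes was -0.05. SF3A is a heterotrimer that joins the U2 snRNP, and its subunits lay at both ends of the family. SF3A3 (ENSG00000183431, chromosome 1 from 37956975 to 37990921) had 44.5 CPM without and 64.5 CPM with M2BPGi, a log2 ratio of 0.53 (interval 0.42 to 0.65). SF3A1 had 61.4 and 76.2 CPM, a log2 ratio of 0.31 (interval 0.21 to 0.41). SF3A2 (ENSG00000104897, chromosome 19 from 2236504 to 2248679) had 106 and 74.7 CPM, a log2 ratio of -0.49 (interval -0.59 to -0.41). SF3A2 was the most abundant of the 3 subunits in non-treated cells and was below SF3A1 in M2BPGi-treated cells. Summed over the 3 subunits, the level was 212 CPM without and 215 CPM with M2BPGi.

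Among the 6 SF3B subunits, 3 were higher and 3 lower. SF3B5, the smallest scaffold subunit, was the most abundant gene of the family, with 393 CPM without and 499.6 CPM with M2BPGi, a log2 ratio of 0.34 (interval 0.31 to 0.38). SF3B4, which contacts RNA near the branch point, had 61.8 and 74.8 CPM, a log2 ratio of 0.27. SF3B14, now called SF3B6, which lies at the branch point adenosine, had 189 and 217 CPM, a log2 ratio of 0.20. These were the 3 higher ones among the 6 SF3B subunits. SF3B1, the large subunit that closes around the branch point helix and is a frequent target of mutation in blood cancers, had 210.3 and 205 CPM, with an interval (-0.09 to 0.02) that included 0. SF3B2 had 148.0 and 147.5 CPM. SF3B3 had 79.5 and 69.5 CPM, a log2 ratio of -0.19 (interval -0.29 to -0.10), and SNORD111 and SNORD111B lie within it on the same strand.

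U2AF1 binds the AG at the end of the intron, and U2AF2 binds the pyrimidine tract before it. U2AF1 had 258 CPM without and 292 CPM with M2BPGi, a log2 ratio of 0.18. It has a near-identical gene in GENCODE v29, so its tags may be shared. U2AF2 had 227 and 219 CPM, a log2 ratio of -0.05 (interval -0.11 to 0.00035). U2AF1L4, a relative of U2AF1, had 10.6 and 9.37 CPM, with an interval (-0.44 to 0.09) that included 0. The large and the small subunit of U2AF therefore had ratios on both sides of 0, with that of U2AF2 close to it.

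**Figure D2:**
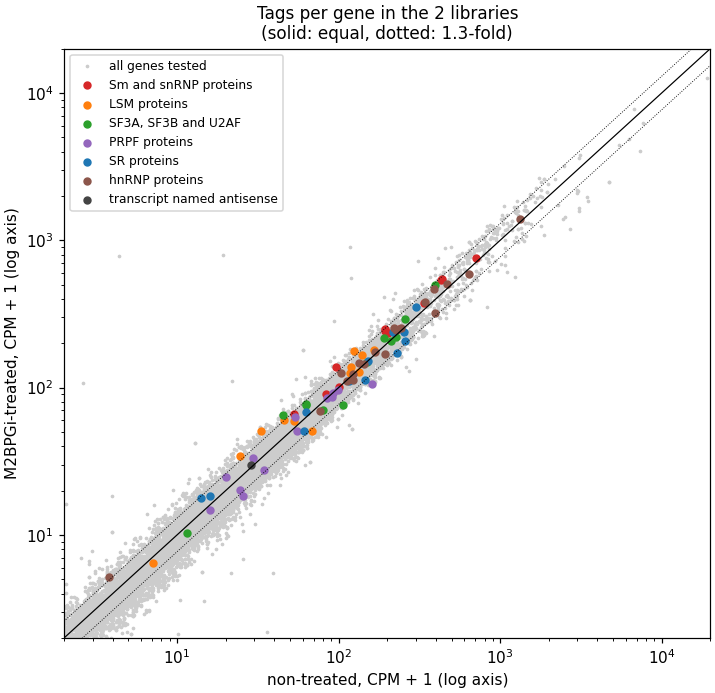
CPM plus 1 in non-treated cells (horizontal, log axis) against M2BPGi-treated cells (vertical, log axis) for the 13724 genes tested (grey) and the 81 members (coloured by family), 1 library each. The solid line marks equal values and the dotted lines 1.3-fold; 68 members lie between the dotted lines.

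RefSeq promoter sequences (GRCh38.p14, 250 bases before and 50 bases after each gene's annotated start) were found for 69 of the 81 members. They were searched on both strands for the ETS-type motif CCGGAAG, which reads CTTCCGG on the opposite strand and is carried by many housekeeping genes. It was present in 19 of the 69 members (27.5%), in 20.5% of the 9881 genes tested that had a promoter and in 10.6% of all 27305 promoters. The families differed in its frequency, with 6 of 11 Sm and snRNP proteins, 7 of 11 subunits of SF3A, SF3B and U2AF, 2 of 11 SR proteins, 2 of 9 PRPF proteins, 1 of 9 LSM proteins and 1 of 18 hnRNP proteins. The median log2 ratio was 0.13 for the 19 members with the motif and 0.07 for the others, but the order was the opposite within the Sm and snRNP proteins (0.14 and 0.33), the SR proteins (-0.15 and -0.0038) and the LSM proteins (0.16 and 0.19), and over all genes tested it was -0.05 with and without it. The windows printed here, 150 bases before the RefSeq start and the 10 bases from it on, belong to the members at the ends of the ratio order that had a promoter, 3 from each end, and the ETS motif is in capitals. They start at RefSeq positions, not at those seen in the CAGE tags. They lie at chr1:36397899-36398058 (minus strand) for LSM10, chr22:24555500-24555659 (plus) for SNRPD3, chr1:37990013-37990172 (minus) for SF3A3, chr19:2236674-2236833 (plus) for SF3A2, chr12:49623411-49623570 (plus) for PRPF40B and chr14:69766992-69767151 (plus) for SRSF5.
LSM10: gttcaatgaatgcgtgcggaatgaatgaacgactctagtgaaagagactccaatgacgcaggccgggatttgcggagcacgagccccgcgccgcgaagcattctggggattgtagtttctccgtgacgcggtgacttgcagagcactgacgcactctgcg
SNRPD3: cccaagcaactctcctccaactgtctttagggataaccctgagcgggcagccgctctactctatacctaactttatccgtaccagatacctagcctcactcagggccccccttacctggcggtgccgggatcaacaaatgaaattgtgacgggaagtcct
SF3A3: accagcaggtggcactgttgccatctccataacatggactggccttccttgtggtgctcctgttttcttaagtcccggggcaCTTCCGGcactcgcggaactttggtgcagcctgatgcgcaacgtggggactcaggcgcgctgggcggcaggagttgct
SF3A2: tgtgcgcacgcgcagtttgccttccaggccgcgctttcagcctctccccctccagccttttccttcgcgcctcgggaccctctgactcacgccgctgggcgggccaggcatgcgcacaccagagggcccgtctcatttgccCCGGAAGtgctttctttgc
PRPF40B: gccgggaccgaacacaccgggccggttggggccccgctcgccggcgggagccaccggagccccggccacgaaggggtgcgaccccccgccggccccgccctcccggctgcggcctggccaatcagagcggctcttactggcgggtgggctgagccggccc
SRSF5: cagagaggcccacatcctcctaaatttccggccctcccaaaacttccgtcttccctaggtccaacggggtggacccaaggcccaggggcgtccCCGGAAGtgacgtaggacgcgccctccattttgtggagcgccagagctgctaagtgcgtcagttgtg
SF3A3 and SF3A2, which went opposite ways, both hold the motif, at -68 and -9 from the start, and SRSF5 holds it at -57. The windows of LSM10, SNRPD3 and PRPF40B do not contain these letters. A match is a description of the letters and not a bound site.

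Other motifs were also counted in these promoters. The letters CCAAT, which read ATTGG on the opposite strand, were in 29 of 69 member promoters (42.0%) and 37.3% of promoters of genes tested. By family, they were in 13 of 18 hnRNP, 6 of 9 PRPF and 4 of 9 LSM promoters. They were in 3 of 11 Sm and snRNP, 2 of 11 SR and 1 of 11 SF3A, SF3B and U2AF promoters. A C at the RefSeq start followed by 4 pyrimidines, the pattern of 5′ terminal oligopyrimidine mRNAs, was found for 7 of 69 members (10.1%), against 5.31% of genes tested and 4.01% of all promoters. These were SNRPD2, SNRPA, LSM2, LSM11, SF3A2, SRSF9 and HNRNPA0, and their log2 ratios ran from -0.49 to 0.51. The members with this start therefore included higher and lower ones. Their median was 0.23, against 0.11 for members without it, and over all genes tested it was 0.04 with and -0.05 without.

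PRPF proteins were mostly lower in M2BPGi-treated cells, with 3 higher and 10 lower. The median log2 ratio was -0.07, close to the -0.05 of all genes, and it was -0.02 after rescaling. At 1.3-fold, 0 were higher and 2 lower, against 6.32% and 13.6% of all genes. PRPF4B (ENSG00000112739, chromosome 6 from 4021267 to 4064983), a kinase that phosphorylates proteins of the tri-snRNP, had the lowest ratio of all members, with 159.7 CPM without and 105 CPM with M2BPGi, a log2 ratio of -0.60 (interval -0.68 to -0.53). It was the member at least 1.5-fold lower and the most abundant PRPF gene in both libraries. PRPF40B, related to a yeast protein that bridges the U1 snRNP and the branch point factor, had 24.5 and 17.4 CPM, a log2 ratio of -0.47 (interval -0.68 to -0.31).

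Proteins of the tri-snRNP made up much of the rest. PRPF8, which cradles the active site, had 91.9 CPM without and 91.1 CPM with M2BPGi, with an interval of -0.10 to 0.07. PRPF6, which bridges U5 and U4/U6, had 90.0 and 85.8 CPM. PRPF31, mutated in inherited retinal degeneration, had 84.3 and 84.3 CPM. These proteins of the tri-snRNP differed by no more than their counting error. PRPF3 and PRPF4, which bind the U4/U6 snRNP together, were lower. PRPF3 had 33.4 and 26.7 CPM, a log2 ratio of -0.31 (interval -0.47 to -0.17). PRPF4 had 54.5 and 50.03 CPM, a log2 ratio of -0.12 (interval -0.24 to -0.01), and the binomial test did not call it.

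The 3 higher PRPF genes were PRPF38A, PRPF19 and PRPF18. PRPF38A, which is needed for the activation of the spliceosome, had 19.2 CPM without and 23.7 CPM with M2BPGi, a log2 ratio of 0.29 (interval 0.13 to 0.48). PRPF19, a ubiquitin ligase that gives its name to a complex of the active spliceosome, had 52.3 and 62.0 CPM, a log2 ratio of 0.24 (interval 0.14 to 0.35). PRPF18, a factor of the exon ligation step, had 28.4 and 32.3 CPM, a log2 ratio of 0.18 (interval 0.03 to 0.33). PRPF38B, related to PRPF38A, had 15.1 and 13.8 CPM with an interval (-0.34 to 0.09) that included 0. PRPF39, a U1-associated protein, had 23.6 and 19.1 CPM, a log2 ratio of -0.29, and SNORD127 lies within it on the same strand.

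SR proteins went both ways, with 5 higher and 7 lower, and their median log2 ratio of -0.03 became 0.02 after rescaling, so the family as a whole had no direction of its own. At 1.3-fold, 0 were higher and 2 lower (1 and 1 after rescaling), and at 1.2-fold 1 was higher and 4 lower. Among all genes, 6.32% were higher and 13.6% lower at 1.3-fold, and 13.0% and 24.2% at 1.2-fold. SRSF5 (ENSG00000100650, chromosome 14 from 69726900 to 69772005) had 229 CPM without and 169 CPM with M2BPGi, a log2 ratio of -0.43 (interval -0.50 to -0.38). SRSF6 (ENSG00000124193, chromosome 20 from 43457928 to 43464247) had 145 and 111 CPM, a log2 ratio of -0.38 (interval -0.46 to -0.31). SRSF5 and SRSF6 bind exonic enhancers and are closely related in sequence. SRSF7, which has a zinc knuckle and also promotes mRNA export, had 256 and 205 CPM, a log2 ratio of -0.32 (interval -0.37 to -0.27). SRSF11, a larger relative, had 60.2 and 49.55 CPM, a log2 ratio of -0.28.

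The SR genes described next had ratios nearer to 0 and are grouped for that reason. SRSF1, which acts in constitutive and alternative splicing, had 115 CPM without and 110.4 CPM with M2BPGi, with an interval (-0.14 to 0.02) that included 0. SRSF2, a target of mutation in myeloid neoplasms, had 251.5 and 238 CPM, a log2 ratio of -0.08 (interval -0.13 to -0.03). SRSF3, the smallest SR protein, had 216 and 237 CPM, a log2 ratio of 0.13. SRSF10, which represses splicing when it is dephosphorylated, had 152 and 151 CPM. SRSF4 had 61.5 and 67.7 CPM, a log2 ratio of 0.13, although it is related to SRSF5 and SRSF6. The group of SRSF4, SRSF5 and SRSF6 was therefore not uniform.

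SRSF9 was the most abundant SR gene, and it was higher in M2BPGi-treated cells. It had 299 CPM without and 349.8 CPM with M2BPGi, a log2 ratio of 0.23 (interval 0.18 to 0.27). SRSF12 and SRSF8 were much less abundant. SRSF12 had 13.1 and 16.8 CPM, a log2 ratio of 0.33 (interval 0.14 to 0.57). SRSF8, which arose by retrotransposition of SRSF2, had 14.9 and 17.3 CPM, a log2 ratio of 0.20 (interval 0.01 to 0.42). The distance of SRSF9 to SRSF7 and SRSF2 was thus wider with M2BPGi, while the summed level of the 12 SR genes was 1813 CPM without and 1723 CPM with M2BPGi.

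**Figure D3:**
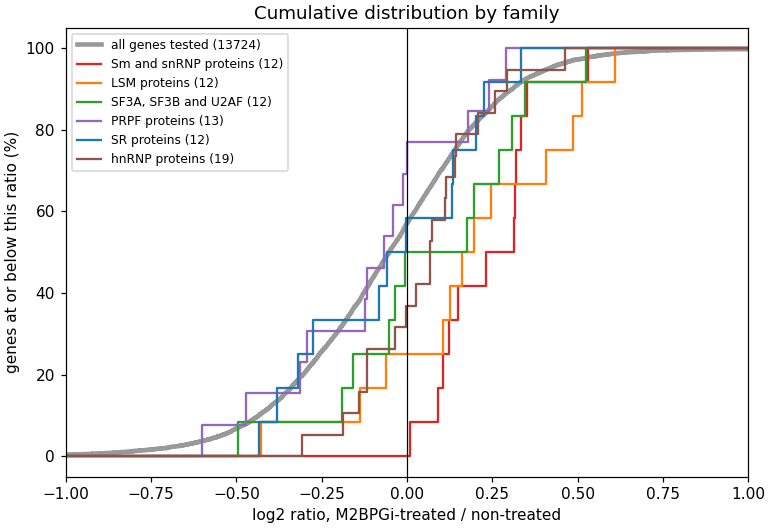
Cumulative distribution of the log2 ratio of M2BPGi-treated over non-treated cells for each family (number of genes in brackets) and for the 13724 genes tested (grey), 1 library per condition; the vertical axis gives the percentage of genes at or below a ratio. The curves of the Sm and LSM proteins lie to the right of the grey curve (medians of 0.27 and 0.18 against -0.05), and those of the PRPF and SR proteins run near it (medians of -0.07 and -0.03, the latter 0.02 after rescaling).

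Among 20 hnRNP genes, 19 passed the filter, and 12 of these were higher and 7 lower. The median log2 ratio was 0.07 (0.12 after rescaling), and the summed level was 5421 CPM without and 5578 CPM with M2BPGi. At 1.3-fold, 1 was higher and 0 lower, against 6.32% and 13.6% of all genes. Most hnRNP genes were thus close to equal in the libraries. HNRNPA2B1 (ENSG00000122566, chromosome 7 from 26173057 to 26201529), a core protein of hnRNP particles, was the most abundant of all members, with 1332 CPM without and 1395 CPM with M2BPGi. Its log2 ratio was 0.07 (interval 0.05 to 0.09), so the difference was beyond counting error but small. HNRNPU, the scaffold attachment factor that binds chromatin and RNA, had 643 and 592 CPM, a log2 ratio of -0.12 (interval -0.15 to -0.09).

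The highest hnRNP genes with a mean of at least 10 CPM were HNRNPA0, HNRNPC and HNRNPA3. HNRNPA0, an intronless relative of HNRNPA1, had 102.0 CPM without and 125 CPM with M2BPGi, a log2 ratio of 0.29 (interval 0.22 to 0.37). HNRNPC, which binds uridine tracts and measures RNA length, had 391 and 467 CPM, a log2 ratio of 0.26 (interval 0.22 to 0.30). HNRNPA3 had 218 and 252 CPM, a log2 ratio of 0.21 (interval 0.16 to 0.26). These genes are core particle proteins or their relatives. HNRNPA1L2, a retrocopy of HNRNPA1, passed 1.3-fold with 2.79 and 4.22 CPM, a log2 ratio of 0.46 from 67 and 105 tags, with a wide interval of 0.14 to 1.06, and it was not past 1.3-fold with a pseudocount of 5 CPM.

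The lowest were HNRNPH1, HNRNPM and HNRNPH2. HNRNPH1, which binds runs of guanosine, had 394 CPM without and 318 CPM with M2BPGi, a log2 ratio of -0.31 (interval -0.35 to -0.27). HNRNPM had 193 and 169 CPM, a log2 ratio of -0.19 (interval -0.25 to -0.13). HNRNPH2 had 75.3 and 68.2 CPM, a log2 ratio of -0.14, and it overlaps the readthrough gene RPL36A-HNRNPH2 on the same strand. The relatives of HNRNPH1 were thus lower by less or not at all. HNRNPF, with the same RNA-binding domains, had 112 and 109 CPM with an interval (-0.11 to 0.04) that included 0, and HNRNPH3 had 166 and 174 CPM, a log2 ratio of 0.07.

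The other hnRNP genes had ratios between these. HNRNPAB, which binds RNA and DNA, had 464 CPM without and 502 CPM with M2BPGi, a log2 ratio of 0.11. HNRNPK, which binds cytidine-rich tracts, had 342 and 378 CPM, a log2 ratio of 0.14. HNRNPD, also called AUF1, binds AU-rich elements of unstable mRNAs, and it had 226 and 244 CPM, a log2 ratio of 0.11. HNRNPL, which binds CA repeats, was nearly level, with 242 and 254.6 CPM and a log2 ratio of 0.07. HNRNPR had 132 and 146 CPM, a log2 ratio of 0.14. HNRNPUL1 and HNRNPUL2, relatives of HNRNPU, had log2 ratios of 0.03 and -0.12, and HNRNPUL2 overlaps the readthrough gene HNRNPUL2-BSCL2. HNRNPU-AS1, named for the antisense strand of HNRNPU, had 27.5 and 28.6 CPM with an interval (-0.10 to 0.21) that included 0. Its identifier carries the same strand sign as that of HNRNPU and was not matched in GENCODE v29, so its relation to HNRNPU was not determined.

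Many of these genes have processed pseudogenes, to which tags of the parent gene can be assigned. Of 20 listed pseudogenes with a symbol of the chosen kind ending in P and digits, 8 were at 0 in both libraries and 5 had a mean of at least 10 CPM. They belong to 9 members. A further 12 near-identical pseudogenes of 7 members are listed under symbols of another kind. Other listed near-identical genes, such as AL356653.1 for SNRPD1 and AC005822.1 for SRSF6, were not summed with their member. HNRNPA1, a core hnRNP protein with a long record in alternative splicing, had 122.5 CPM without and 122.3 CPM with M2BPGi. Its copy HNRNPA1P7 had more, with 138 and 149 CPM. Summed with the 6 copies listed under such symbols, HNRNPA1 had 260.3 and 272 CPM, a log2 ratio of 0.06 in place of -0.0022, and with 3 more listed under other symbols the log2 ratio was 0.03. SNRPC has a copy, SNRPCP2, that is listed under another symbol and had 123 and 164.9 CPM, more than SNRPC itself, and their sum had a log2 ratio of 0.39. The level of this gene is therefore uncertain by more than its difference between the libraries. LSM3P3 had 179 and 211 CPM, above LSM3 itself, and the sum had a log2 ratio of 0.24, as had LSM3 alone. SNRPD2P1 had 73.9 and 91.2 CPM, with a log2 ratio of 0.30 beside 0.32 for SNRPD2. SNRPGP2 had 23.5 and 22.2 CPM, with an interval (-0.26 to 0.08) that included 0, beside a log2 ratio of 0.10 for SNRPG. With copies summed, LSM12 had a log2 ratio of 0.37 and was no longer past 1.3-fold, while SNRPC with SNRPCP2 came to be past it.

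**Figure D4:**
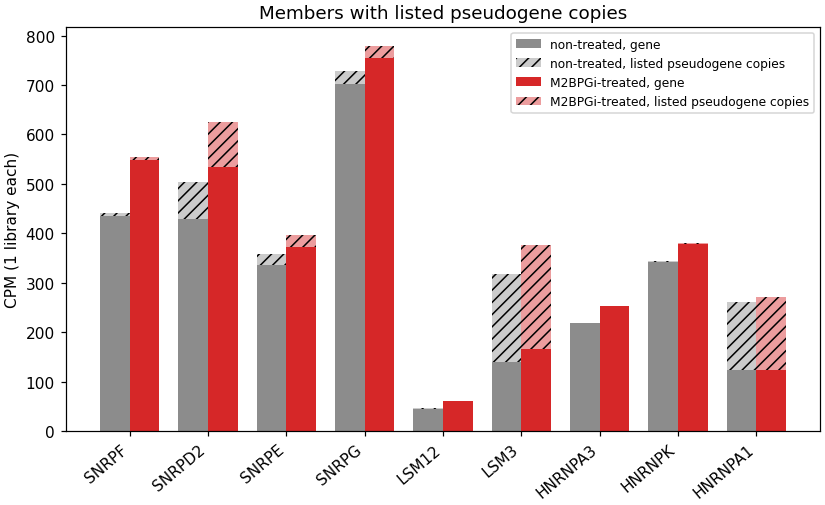
CPM of the 9 members that have pseudogene copies listed under a symbol of the chosen kind (solid bars) with the summed CPM of those copies stacked on top (hatched), in non-treated (grey) and M2BPGi-treated (red) cells, 1 library each. For HNRNPA1 and LSM3 the copies held more tags than the gene, and for the other 7 the gene held most.

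A search of transcript starts found genes elsewhere with near-identical sequence for 29 of the 79 members searched. These 29 had a median log2 ratio of 0.14, with 22 higher and 7 lower. The 50 members without such a gene had a median of -0.0024, with 24 higher and 26 lower, and 4 were at least 1.3-fold higher and 3 lower. The members without such a gene were thus about as often lower as higher, and whether shared tags have a part in this was not tested. The 5 Sm and snRNP proteins without a near-identical gene had a median of 0.32 and 5 of 5 were higher, but among them SNRPD3, SNRPN and SNRPB overlap another gene on the same strand and SNRPD2 has a listed copy, so sharing of tags was not settled for them. The 10 LSM proteins without one had a median of 0.14, and 7 of them were higher, but they include LSM3, whose listed copy holds more tags than the gene. Of the members past 1.3-fold, LSM10, SNRPD3, LSM2, LSM6, SF3A2, PRPF40B and LSM14B had none, while SF3A3, LSM12, HNRNPA1L2, PRPF4B, SRSF5 and SRSF6 had at least 1. HNRNPA1 had 41 such genes and HNRNPUL1 had 30. Some matches, such as those of SRSF5 to AK3 and GTF2H2C and of HNRNPUL1 to PPARA and OGG1, are to unrelated genes and need not be copies. Both members are counted among the 29.

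Members with short transcripts were higher than members with longer ones. Of the 27 members whose longest transcript in GENCODE v29 was at most 2365 nt, 23 were higher with M2BPGi, and the median log2 ratio of this class was 0.20. Of 32 members from there to 4352 nt, 12 were higher and the median was -0.04. Of 20 longer members, 11 were higher and the median was 0.09. Over all genes tested with a length, the medians of these classes were 0.02, -0.05 and -0.11, so the short members were above other short genes, and the long ones above other long genes. Spearman's rho of ratio and length was -0.33 across the 79 members and -0.16 across 13271 genes, which share 2 libraries and are not independent replicates. Of the 12 Sm and snRNP proteins, 9 were in the short class, and 9 of these 9 were higher, as were the other 3. Of 9 SR proteins in the middle class, 2 were higher. The part of length in the difference between these families was not tested.

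**Figure D5:**
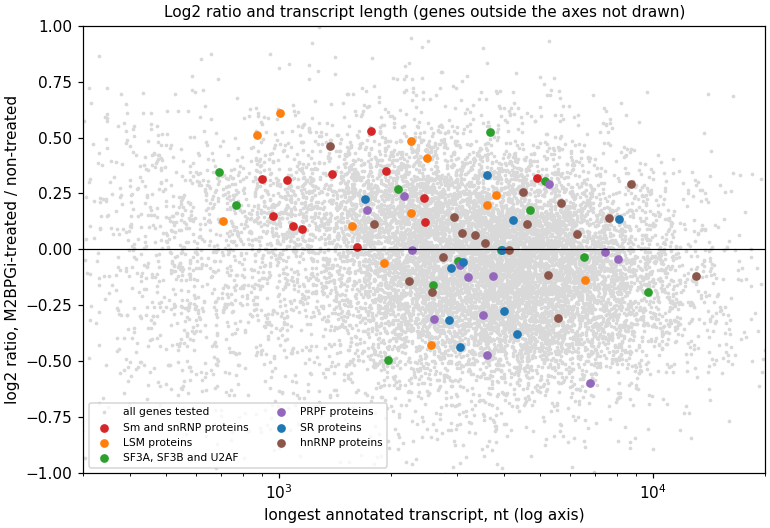
Log2 ratio of M2BPGi-treated over non-treated cells against the length of the longest annotated transcript (nt, log axis) for members (coloured by family) and all genes tested (grey), 1 library per condition; genes outside the axes are not drawn. The ratio and length of members are weakly and inversely ranked (Spearman's rho of -0.33 over 79 members), and 9 of the 12 Sm and snRNP proteins have a transcript of at most 2365 nt.

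Other genes of the splicing pathway were described by 5 lists with 160 genes, of which 154 were listed and 152 passed the filter. Their median log2 ratio was -0.03, with 66 higher and 86 lower, near the -0.05 of all genes. At 1.3-fold, 2 were higher and 9 lower (1.32% and 5.92%, against 6.32% and 13.6% of all genes, which are less abundant), and after rescaling 5 were higher and 6 lower. These genes thus did not share the higher position of the Sm and LSM proteins. For 4 of the lists the median was just below 0 and became positive after rescaling (0.01 to 0.02), so they have no direction that holds across scalings.

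The exception was the SMN complex with the Sm assembly factors, which load Sm rings onto small nuclear RNAs. Of its 19 genes, 17 were listed, with a median log2 ratio of 0.11 (0.17 after rescaling), 11 higher and 6 lower, and 0 past 1.3-fold in either direction (2 higher after rescaling). STRAP, a component of the SMN complex, had 142 CPM without and 182 CPM with M2BPGi, a log2 ratio of 0.35. GEMIN6, which has an Sm-like fold, had 48.2 and 60.9 CPM, a log2 ratio of 0.33. The lowest were GEMIN8, with 13.8 and 10.9 CPM and a log2 ratio of -0.31, and WDR77, with 11.2 and 9.53 CPM and a log2 ratio of -0.21, whose interval (-0.49 to 0.03) included 0. WDR77 acts with PRMT5, which methylates Sm proteins and had 48.5 and 56.1 CPM, so partners in that complex lay on both sides of 0. SMN1 and SMN2 were not analysed here.

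The 36 further U1, U2, tri-snRNP and minor spliceosome proteins had a median log2 ratio of -0.03, with 1 past 1.3-fold higher and 2 lower. SNU13, which binds U4 RNA and is listed under its older name NHP2L1, had 100.5 CPM without and 135 CPM with M2BPGi, a log2 ratio of 0.42. PUF60, a partner of U2AF2, had 95.4 and 117 CPM, a log2 ratio of 0.29. The 2 lower were SUGP1, which helps SF3B1 select branch points, and RNPC3, a protein of the minor spliceosome with 12.1 and 7.8 CPM and a log2 ratio of -0.57. DHX15, a helicase of spliceosome disassembly, was the next with a mean of at least 10 CPM. SUGP1 had 18.3 and 10.3 CPM, a log2 ratio of -0.77. DHX15 had 191 and 148 CPM, a log2 ratio of -0.36. The 43 Prp19 complex, helicase and exon junction proteins also had a median of -0.03, with 1 higher and 3 lower at 1.3-fold (1 and 2 after rescaling). CASC3, a core protein of the exon junction complex, had 12.1 and 19.1 CPM, a log2 ratio of 0.62, and CDC40, a step factor, had 24.96 and 30.9 CPM, a log2 ratio of 0.30. UPF3B, which links that complex to mRNA decay, had 30.6 and 20.9 CPM, and PNN had 54.9 and 37.8 CPM, with log2 ratios of -0.53 for both. The third lower gene was SRRM2, a large protein of nuclear speckles, with 288 and 219.7 CPM and a log2 ratio of -0.39. Of the other core exon junction proteins, EIF4A3 and MAGOH were nearer to 0, with log2 ratios of -0.10 and 0.22. RBM8A was rare, with 5.57 and 5.63 CPM, a log2 ratio of 0.01 and a wide interval (-0.34 to 0.37).

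Of 16 genes for kinases and other regulators of SR proteins, 15 were listed, with a median log2 ratio of -0.03 and 0 higher and 3 lower at 1.3-fold (0 and 2 after rescaling). The 3 were CLK4, CLK2 and CLK1, kinases that phosphorylate SR proteins in the nucleus. At this fold, 6.32% of all genes were higher and 13.6% lower. CLK4 had 17.6 CPM without and 11.3 CPM with M2BPGi, a log2 ratio of -0.60. CLK2 had 27.6 and 19.5 CPM, a log2 ratio of -0.48. CLK1 had 28.0 and 21.0 CPM, a log2 ratio of -0.40. CLK3 was not lower to this degree, with 35.3 and 34.8 CPM and an interval (-0.16 to 0.12) that included 0, and SRPK1, the cytoplasmic SR kinase, had 91.3 and 89.3 CPM. The highest were PPP1CC and AKT1. PPP1CC, a phosphatase catalytic subunit, had 55.8 and 70.0 CPM, a log2 ratio of 0.32. AKT1 had 44.1 and 47.8 CPM, with an interval (-0.0048 to 0.24) that included 0.

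Of 46 other RNA-binding regulators of splicing, 43 were listed and 41 passed the filter, with a median log2 ratio of -0.04. They were lower in 27 cases and higher in 14, with 0 higher and 1 lower at 1.3-fold (1 and 0 after rescaling). SON, a large protein of nuclear speckles, had 625 CPM without and 480.1 CPM with M2BPGi, a log2 ratio of -0.38. MBNL1, a regulator of developmental splicing, had 41.8 and 31.9 CPM, also a log2 ratio of -0.38. The highest were PCBP2, which binds cytidine-rich RNA, with 101 and 128 CPM and a log2 ratio of 0.34, and YBX1, an abundant RNA-binding protein, with 555 and 677 CPM and a log2 ratio of 0.29.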

How the data were processed

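CAGE libraries of PLC/PRF/5 cells, 1 non-treated and 1 M2BPGi-treated, were deposited by the authors as CPM per gene with 2 decimals. The authors removed ribosomal tags and mapped the others with BWA; the submitters' processing notes also name HISAT2 and the human build hg19, while the paper's methods name a mouse build and the listed identifiers belong to human genes. The rule for giving tags to genes, strands or near-identical copies is not stated in the sources used here. Within the rounding (0.005 CPM), each value above 0 (100%) equalled a whole number of steps of 1 tag, from which the tag numbers were inferred; the intervals and the binomial test depend on these inferred numbers.

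Log2 ratios used a pseudocount of 1 CPM and a mean of at least 1 CPM. The members and lists were chosen with earlier results of these data known. Named were, with a mean of at least 10 CPM, the 3 highest, 3 lowest and most abundant members of each family, those past 1.3-fold, and the 2 highest and 2 lowest genes of each list; the choice of other names was made with their values known. Near-identical genes share 100 nt or more at 95% identity with the initial 500 nt of a member's transcript (BLAST+ 2.17.0, GENCODE v29), a search added after the data were seen, as were sums with copies listed under other symbols. Alternatives were other pseudocounts, filters, folds and rescalings, and the binomial test at an adjusted threshold of 0.05. The calculation was tested on simulated data. Python 3.11.15, scipy 1.17.1 and pandas 2.3.3 were used.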

Additional observations from a re-analysis of the deposited data

How the results depend on the processing

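Each condition has 1 library, so neither leaving out a library nor pairing was possible. Pseudocounts of 0.1 and 5 CPM, no filter on low values and leaving out or adding listed pseudogene copies kept the direction of the median of the members and of each family. No symbol had more than 1 row to sum. With a mean of at least 10 CPM, the median of SF3A, SF3B and U2AF was 0.18, with 1 gene fewer. After rescaling to a median log2 ratio of 0, and with the trimmed mean of M values, 11 members each were at least 1.3-fold higher, and the medians were 0.32 and 0.32 for the Sm and snRNP proteins, 0.021 and 0.020 for the SR proteins, 0.023 and 0.023 for the U1, U2, tri-snRNP and minor spliceosome list, 0.022 and 0.021 for the Prp19 list, 0.011 and 0.010 for the other RNA-binding regulators and 0.021 and 0.020 for the SR protein kinases. Both settings shift each log2 ratio by 0.05. Without members that have a near-identical gene, chosen after seeing the data, the median of the members was -0.0024, that of SF3A, SF3B and U2AF -0.035, 24 members were above 0, and 4 were higher and 3 lower at 1.3-fold; 50 members were then left, and the cause of the lower medians was not tested. The numbers higher and lower were 1 and 1 at 1.5-fold, 18 and 11 at 1.2-fold, 0 and 0 at 2-fold, and 43 and 17 by the binomial test. Under each of the 2 rescalings, 7 named members and 2 named list genes went beyond their interval, and under the pseudocounts none did. With a pseudocount of 5 CPM, 5 members were higher and 5 lower at 1.3-fold, with HNRNPA1L2 no longer past it and LSM12, SRSF6 and SON just short of it. The other settings mostly leave the ratio of a single gene as it is by construction.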
